A study of Mus musculus with 8 samples.

Results

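The mammalian circadian clock genes were followed in the injured liver. They were 10 of the 54532 genes for which a level was deposited, taken by symbol: Arntl (the gene of BMAL1), Clock, Per1, Per2, Per3, Cry1, Cry2, Nr1d1, Nr1d2 and Dbp. Liver tissue was sampled from 4 METTL3-HKD mice and from 4 of their METTL3-Flox littermates. METTL3-HKD mice carried 1 floxed Mettl3 allele (written flox/-) and Alb-iCre, a recombinase driven by the albumin promoter and so active in hepatocytes. METTL3-Flox mice carried the floxed allele on both chromosomes, and the study names no Cre for them. Mettl3 encodes the enzyme that writes N6-methyladenosine on mRNA. All 8 livers were exposed to 1 h of partial warm ischemia and 6 h of reperfusion, and no liver without this injury was analysed here. The age of these mice and the hour of day at which the livers were taken are not given in the sources used here. All 10 genes passed the filter, a mean of 0.1 FPKM (fragments per kilobase of gene, scaled to sequencing depth).

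In the clock, the proteins BMAL1 and CLOCK form a pair that binds E-box sequences and switches on Per, Cry, Nr1d1, Nr1d2 and Dbp. PER and CRY proteins then return to the nucleus and shut off that pair, while the nuclear receptors REV-ERBα and REV-ERBβ, encoded by Nr1d1 and Nr1d2, repress Arntl and Cry1 through ROR elements. DBP carries the rhythm to many liver genes through D-box sequences. As a result, the mRNAs of Dbp, the Per genes and the Nr1d genes are abundant at one phase of the day in mouse liver, and Arntl and Cry1 at a later phase.

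These sequences were looked for in the RefSeq promoter windows of build GRCm38.p6, which run from 250 bases before to 50 bases after a gene's start site. The windows matched 9 of the 10 clock genes, in 13 windows, and Per2 had no entry. The E-box, CACGTG, lay in the windows of Per1 and Cry1 and in 7.15% of all 32851 windows. The related E'-box, CACGTT, lay in windows of Cry1, Cry2 and Nr1d1 and in 4.68% of all windows. The D-box, TTANNTAA, lay in a window of Per3 and in 6% of all windows, and the ROR element, TAGGTCA, in a window of Arntl and in 2.61%. Both strands were read, the motifs share no letters in these windows, and a match of letters is a description and not a binding site. The stretches are shown because Cry1 is the clock gene that differed between the groups, Per1 carries the other E-box, and Per3 and Arntl are among the genes that varied most between livers. Capitals mark the E-box in Cry1, starting 60 bases before the start site, the E-box in Per1, the 2 D-box matches in Per3, and the ROR element in Arntl, which begins 31 bases into the first exon. Each stretch reads 5′ to 3′ on the strand of its gene. Those of Cry1, Per1 and Per3 lie upstream of the RefSeq start site, and that of Per1 is inside the span of the deposited gene, which begins farther 5′.
Cry1, chr10:85185055-85185204, minus strand: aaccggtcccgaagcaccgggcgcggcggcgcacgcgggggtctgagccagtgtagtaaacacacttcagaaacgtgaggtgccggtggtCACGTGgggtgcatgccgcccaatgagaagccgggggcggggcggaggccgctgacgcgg
Per1, chr11:69098733-69098832, plus strand: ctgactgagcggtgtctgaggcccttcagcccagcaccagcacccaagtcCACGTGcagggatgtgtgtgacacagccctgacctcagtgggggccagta
Per3, chr4:151044796-151044895, minus strand: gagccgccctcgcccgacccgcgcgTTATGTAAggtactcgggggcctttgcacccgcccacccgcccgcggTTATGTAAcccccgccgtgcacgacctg
Arntl, chr7:113207529-113207558, plus strand: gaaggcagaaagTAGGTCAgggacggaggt

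Between 15861245 and 18434488 reads fell on genes in each library. Of 16645 genes tested with limma on log2(FPKM + 0.1), 9.05% were called higher in METTL3-HKD and 6.63% lower, at a Benjamini-Hochberg adjusted p under 0.05. When libraries were scaled to reads on genes, the median over all genes went from -0.0028 to 0.19 in log2 fold change, and 86.0% instead of 57.7% of the calls were higher. Mettl3 had 1.33 ± 0.181 FPKM (SD, n = 4) in METTL3-HKD and 1.50 ± 0.282 FPKM in METTL3-Flox, a log2 fold change of -0.16 with an adjusted p of 0.556 (limma). This level covers the whole gene and not the deleted exon, and 933 of its exon bases are shared with Tox4 on the opposite strand. Liver tissue also holds cells other than hepatocytes, the cells in which the knockdown was aimed at Mettl3. The Mettl3 level therefore does not check the labels. Its log2 fold change turned in sign when libraries were scaled to reads on genes, to 0.047.

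The expression of 1 clock gene, Cry1, was elevated in METTL3-HKD, and no clock gene was called lower. This 1 of 10 compares with 9.05% of all genes called higher, and the 0 of 10 with 6.63% called lower. At an unadjusted p under 0.05 limma gave 1 clock gene higher, Cry1, and 1 lower, Cry2. Of all 16645 genes tested, 2785 were higher and 2520 lower at that threshold. Of the 10 genes, only Cry1 passed the adjusted p threshold of 0.05 together with a change of 1 or more on the log2 scale. The groups did not overlap for 1 clock gene in the higher direction, against 12.7% of all genes, and for 0 in the lower direction, against 9.95%. The log2 fold change was positive for 4 clock genes and negative for 6, with a median of -0.48 against -0.0028 over all genes tested. Because liver tissue and not sorted cells was sequenced, fewer cells of a type and less RNA per cell cannot be told apart for any of these genes.

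**Figure D1:**
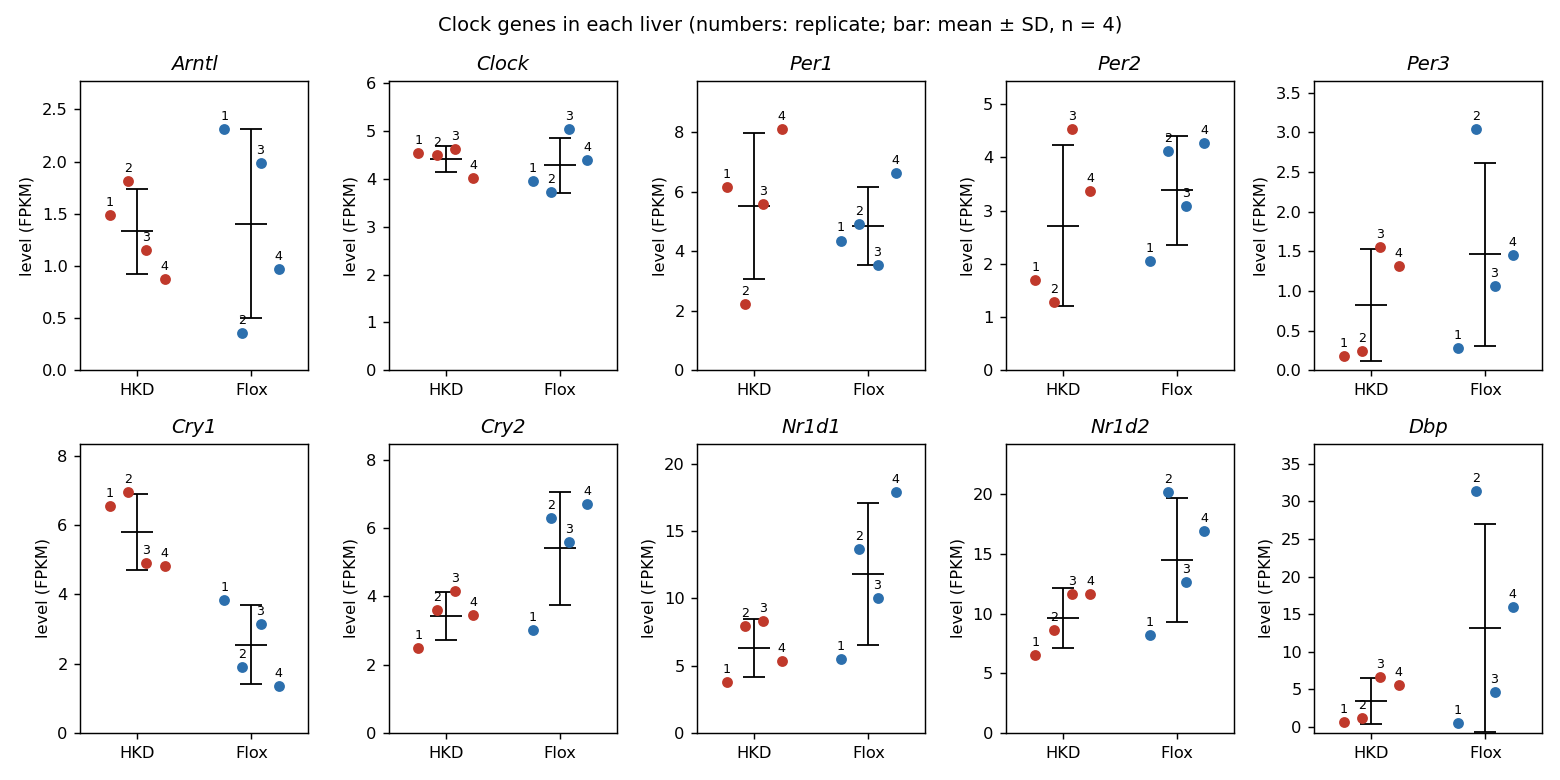
Level in FPKM (vertical axes, each starting at 0 except that of Dbp, which extends below it for the SD bar) of the 10 clock genes in the 4 METTL3-HKD (red) and 4 METTL3-Flox (blue) livers, numbered by replicate, with black bars for the mean ± SD. Only for Cry1 do all METTL3-HKD points lie above all METTL3-Flox points, and for Dbp the METTL3-Flox points run from 0.517 to 31.4 FPKM.

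The activators came first. Arntl, which encodes BMAL1 (ENSMUSG00000055116, chr7:113207465-113314126, plus strand, GRCm38), was measured at 1.49, 1.81, 1.15 and 0.873 FPKM in livers 1 to 4 of METTL3-HKD. In livers 1 to 4 of METTL3-Flox it had 2.31, 0.354, 1.98 and 0.974 FPKM. The METTL3-Flox livers alone spanned a 6.53-fold range that enclosed every METTL3-HKD liver. The log2 fold change was 0.15 (SE 0.493), with a 95% interval from -0.97 to 1.26 and an adjusted p of 0.871 by limma. Its sign turned when METTL3-HKD liver 2 or METTL3-Flox liver 2 was left out, to -0.0079 and -0.34.

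Clock encodes the partner of BMAL1 (ENSMUSG00000029238, chr5:76209868-76304792, minus strand). It had 4.54, 4.49, 4.61 and 4.02 FPKM in METTL3-HKD livers and 3.96, 3.73, 5.04 and 4.39 FPKM in METTL3-Flox livers. These 8 values lay within a 1.35-fold range and the groups overlapped. The log2 fold change was 0.05 (SE 0.114), the 95% interval ran from -0.21 to 0.31, and the adjusted p was 0.797 (limma). Clock therefore had the narrowest interval of the 10 genes, on 773 to 1254 reads per liver.

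Among the period genes, which encode repressors of the BMAL1 and CLOCK pair, none passed the test. Per1, the period gene that also responds quickly to stress hormones and cAMP (ENSMUSG00000020893, chr11:69095217-69109960, plus strand), had 6.14, 2.22, 5.60 and 8.10 FPKM in METTL3-HKD livers. In METTL3-Flox livers it had 4.36, 4.90, 3.53 and 6.62 FPKM. METTL3-HKD liver 2 was the lowest of all 8 and METTL3-HKD liver 4 the highest. By limma, the log2 fold change was 0.08 (SE 0.364), from -0.74 to 0.90, with an adjusted p of 0.909.

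Per2 (ENSMUSG00000055866, chr1:91415982-91459324, minus strand) had 1.69, 1.28, 4.53 and 3.36 FPKM in METTL3-HKD livers and 2.05, 4.12, 3.08 and 4.26 FPKM in METTL3-Flox livers. METTL3-HKD livers 1 and 2 lay below every METTL3-Flox liver, and METTL3-HKD liver 3 lay above them all. A log2 fold change of -0.42 (SE 0.393) was found, from -1.31 to 0.47, with an adjusted p of 0.5001 by limma.

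Per3, a period gene known as a strongly rhythmic transcript (ENSMUSG00000028957, chr4:151003652-151044665, minus strand), had 0.181, 0.242, 1.55 and 1.31 FPKM in METTL3-HKD livers. In METTL3-Flox livers it had 0.286, 3.04, 1.07 and 1.45 FPKM. Low livers, under 0.3 FPKM, occurred in both groups, namely METTL3-HKD livers 1 and 2 and METTL3-Flox liver 1. The log2 fold change of -0.82 (SE 0.759) had a 95% interval from -2.54 to 0.89 and an adjusted p of 0.493 (limma). It was -1.38 without METTL3-Flox liver 1 and -0.37 without METTL3-Flox liver 2. The lowest of these values rests on 35 reads.

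The 2 cryptochromes, which bind PER proteins and block the activators, had fold changes of opposite sign. Cry1 (ENSMUSG00000020038, chr10:85131700-85185064, minus strand), whose upstream E-box is shown above, had 6.53, 6.95, 4.89 and 4.80 FPKM in METTL3-HKD livers. In METTL3-Flox livers it had 3.83, 1.89, 3.13 and 1.34 FPKM. The lowest METTL3-HKD liver stood above the highest METTL3-Flox liver. The means were 5.79 ± 1.11 and 2.55 ± 1.14 FPKM (SD, n = 4 each), a 2.27-fold difference. On the log2(FPKM + 0.1) scale, which understates the change of low genes, the fold change was 1.24 (SE 0.302), with a 95% interval from 0.56 to 1.93. The adjusted p was 0.0277 by limma, and the two-sided exact permutation test of the mean FPKM gave p = 0.0286, the smallest that 4 livers against 4 allow. Without METTL3-HKD liver 1, METTL3-HKD liver 2 or METTL3-Flox liver 2, Cry1 kept log2 fold changes of 1.18, 1.15 and 1.14, but the adjusted p rose to 0.0740, 0.0699 and 0.0715 by limma. With the log2 level of Dbp in each liver added to the fit, an alternative chosen after seeing the data, it was 0.96 with an adjusted p of 0.0229 (limma).

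Cry2 (ENSMUSG00000068742, chr2:92403646-92434043, minus strand) had 2.49, 3.60, 4.16 and 3.46 FPKM in METTL3-HKD livers and 3.03, 6.29, 5.61 and 6.72 FPKM in METTL3-Flox livers. METTL3-Flox livers 2, 3 and 4 lay above every METTL3-HKD liver, and METTL3-Flox liver 1 lay among them. Its log2 fold change was -0.60 (SE 0.256), with a 95% interval from -1.18 to -0.03. The adjusted p of 0.141 (limma) missed the threshold, and the exact permutation test gave p = 0.114. Without METTL3-Flox liver 1 the fold change was -0.86 and the adjusted p 0.0216 (limma), and with array quality weights they were -0.71 and 0.0440. These were the only 2 of 19 alternatives in which Cry2 was called. Its adjusted p reached 0.359 (limma) when libraries were scaled to reads on genes. Of its 6320 exon bases, 295 are shared with D930015M05Rik on the opposite strand, which had at most 0.468 FPKM.

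The ratio of Cry1 to Cry2 within a liver does not depend on the scaling between libraries. On the log2 scale it was 1.39, 0.95, 0.23 and 0.47 in METTL3-HKD livers and 0.34, -1.73, -0.84 and -2.33 in METTL3-Flox livers. Cry1 exceeded Cry2 in all 4 METTL3-HKD livers and in 1 METTL3-Flox liver, liver 1. The group means differed by 1.90, and the groups overlapped because of METTL3-Flox liver 1. This ratio was not tested, since Cry1 itself differed between the groups.

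**Figure D2:**
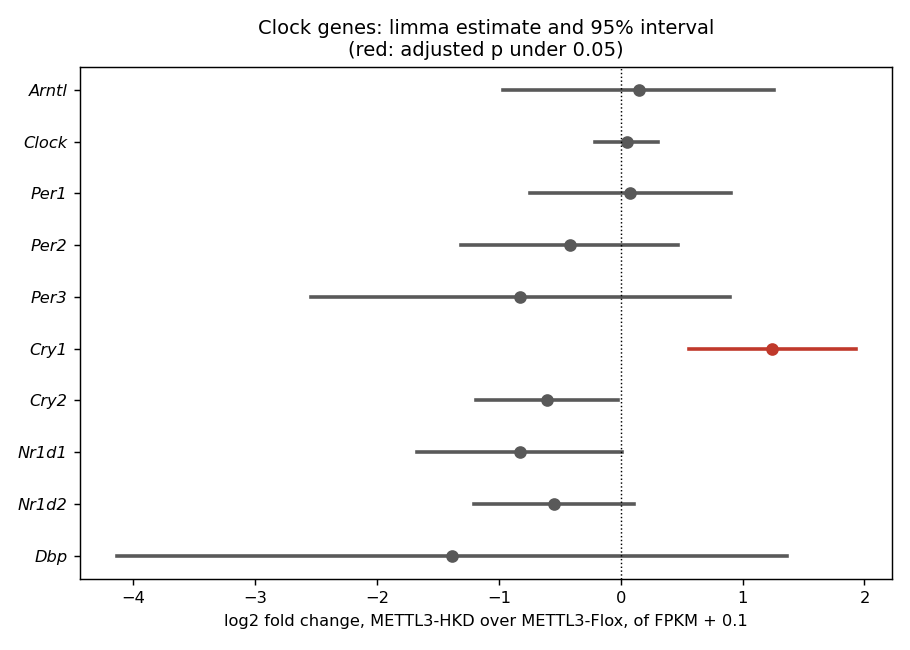
Log2 fold change of METTL3-HKD over METTL3-Flox on the log2(FPKM + 0.1) scale (horizontal axis) for the 10 clock genes, with dots for the limma estimate and lines for the 95% interval over 4 livers a group. The interval of Cry1, in red, runs from 0.56 to 1.93, that of Clock from -0.21 to 0.31, and that of Dbp from -4.13 to 1.36.

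The nuclear receptors Nr1d1 and Nr1d2 had lower means in METTL3-HKD, and neither passed the test. Nr1d1 (REV-ERBα, ENSMUSG00000020889, chr11:98767932-98775333, minus strand) had 3.78, 7.95, 8.31 and 5.35 FPKM in METTL3-HKD livers. In METTL3-Flox livers it had 5.51, 13.7, 10.05 and 17.9 FPKM. METTL3-Flox livers 2, 3 and 4 were above every METTL3-HKD liver, and METTL3-Flox liver 1 was again among them. For Nr1d1 the log2 fold change was -0.83 (SE 0.372), from -1.67 to 0.01, with an adjusted p of 0.163 by limma and an exact permutation p of 0.114. Without METTL3-Flox liver 1 it was -1.15, with an adjusted p of 0.0446 (limma). Nr1d1 was called in only this 1 of 19 alternatives, and its adjusted p reached 0.352 (limma). It shares 263 exon bases with Thra, which lies on the opposite strand and had 2.12 to 3.26 FPKM.

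Nr1d2 (REV-ERBβ, ENSMUSG00000021775, chr14:18204054-18239127, minus strand) had 6.49, 8.65, 11.6 and 11.7 FPKM in METTL3-HKD livers and 8.22, 20.2, 12.6 and 16.9 FPKM in METTL3-Flox livers. Here too METTL3-Flox liver 1 was the only one of its group within the METTL3-HKD range. Its log2 fold change was -0.55 (SE 0.290), from -1.20 to 0.11, with an adjusted p of 0.225 by limma and an exact permutation p of 0.143. With METTL3-Flox liver 1 left out, Cry2, Nr1d1 and Nr1d2 joined Cry1 in having groups that did not overlap. That made 1 clock gene higher and 3 lower, where 16.4% and 14.9% of all genes did not overlap at 4 livers against 3. With any other single liver left out, the groups did not overlap for only 1 clock gene. METTL3-Flox liver 1 had the lowest library size factor, 0.835, and METTL3-HKD liver 1 the highest, 1.18. Every METTL3-HKD liver had a larger factor than every METTL3-Flox liver. The lowest in METTL3-HKD was 1.0618, in liver 3, and the highest in METTL3-Flox was 0.9498, in liver 2. The numbers of reads on genes overlapped between the groups. Scaled to reads on genes instead, the log2 fold changes were -0.34 for Nr1d2, -0.61 for Nr1d1, -0.39 for Cry2, -0.21 for Per2 and 1.45 for Cry1, with only Cry1 called among the clock genes. The log2 ratio of Nr1d1 to Arntl within a liver was 1.35, 2.13, 2.86 and 2.62 in METTL3-HKD and 1.25, 5.28, 2.34 and 4.20 in METTL3-Flox. METTL3-Flox liver 1 had the lowest ratio of all 8, and METTL3-HKD liver 1 the next.

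Dbp, the output factor (ENSMUSG00000059824, chr7:45705088-45710203, plus strand), varied most between livers. It had 0.598, 1.10, 6.60 and 5.57 FPKM in METTL3-HKD livers and 0.517, 31.4, 4.66 and 15.9 FPKM in METTL3-Flox livers. Both groups held livers near the lowest level and livers several-fold higher. The highest liver exceeded the lowest 11.04-fold in METTL3-HKD and 60.7-fold in METTL3-Flox, on 22 to 1519 reads. The log2 fold change of -1.38 (SE 1.22) had a 95% interval from -4.13 to 1.36, with an adjusted p of 0.473 by limma and an exact permutation p of 0.343. It was -2.49 without METTL3-Flox liver 1 and -0.60 without METTL3-Flox liver 2, the ends of the range with 1 liver left out. Of its 2993 exon bases, 539 are shared with Sphk2 on the opposite strand, and the strand setting of the counting is not given in the sources used here. Sphk2 had 6.97, 9.73, 9.96 and 9.03 FPKM in METTL3-HKD livers and 12.2, 11.8, 16.5 and 15.4 FPKM in METTL3-Flox livers, with every METTL3-HKD liver below every METTL3-Flox liver (exact permutation p = 0.0286). The part of shared reads in the Dbp values was not tested.

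In METTL3-Flox livers the mean levels per length ran, from high to low, Nr1d2, Dbp, Nr1d1, Cry2, Per1, Clock, Per2, Cry1, Per3 and Arntl. Neighbours in this order differed by more than the larger of their SDs only between Nr1d1 and Cry2, where the gap was 6.39 FPKM and the SD 5.29 FPKM. In METTL3-HKD livers the order was Nr1d2, Nr1d1, Cry1, Per1, Clock, Dbp, Cry2, Per2, Arntl and Per3. There only Nr1d2 and Nr1d1 stood apart, with a gap of 3.26 FPKM and an SD of 2.52 FPKM. Cry1 thus stood at rank 8 in METTL3-Flox and rank 3 in METTL3-HKD, within an SD of its neighbours in both orders.

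The spread between livers of a group was wide for most clock genes. The residual SD of log2(FPKM + 0.1), the spread that remains after the group means are removed, had a median of 0.273 over all genes tested and of 0.625 over the 10 clock genes. For Dbp it was 2.10, and only 0.318% of the tested genes had a larger one. It was 1.30 for Per3 and 0.833 for Arntl, exceeded by 3.30% and 10.3% of the tested genes. Clock was the exception, with 0.145 and 82.7% of genes above it. For Cry1 it was 0.505, with 24.3% of genes above it. These shares describe all tested genes at any level. Where the mean reached 1 FPKM or more (10694 genes), the median was 0.204, and 0.271% exceeded Dbp and 74.3% exceeded Clock. A wide spread was not particular to the 10 clock genes. Among the lists read below, the median was 0.577 for other clock transcription factors, 0.538 for liver genes driven by the clock and 0.573 for glucocorticoid-inducible genes. It was 0.842 for neutrophil markers, 0.308 for hepatocyte markers, 0.137 for clock kinases and ubiquitin enzymes and 0.167 for clock cofactors.

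**Figure D3:**
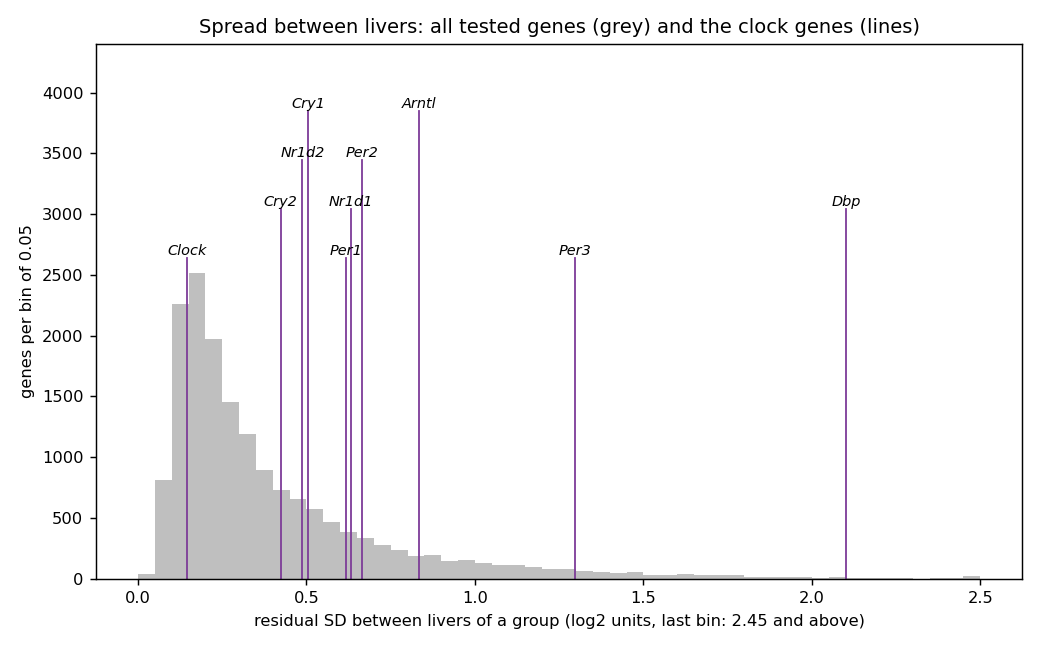
Number of tested genes (vertical axis, bins of 0.05) by the residual SD between livers of a group on the log2(FPKM + 0.1) scale (horizontal axis, with 2.45 and above in the last bin), and purple lines at the values of the 10 clock genes, whose heights only separate the labels. Clock, at 0.145, lies near the peak of the grey bars, the other 9 lie to the right of the median of 0.273, and Dbp lies at 2.10.

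The levels of some clock genes varied together from liver to liver. All 45 pairs of clock genes were correlated over the 8 livers after the group means were removed, with exact permutations within groups (576 arrangements, smallest p 0.00174), a choice made after the values were seen. At a raw p under 0.05 there were 20 pairs, and at a Benjamini-Hochberg adjusted p under 0.05 there were 4, all positive. They were Dbp with Per3 (r = 0.96), Dbp with Nr1d2 (r = 0.99), Per3 with Nr1d2 (r = 0.95) and Cry2 with Nr1d1 (r = 0.95), each with an adjusted permutation p of 0.0391. By rank within groups no pair passed (7 pairs at a raw permutation p under 0.05, smallest adjusted p 0.0781), and none of the 9 pairs with Clock reached a raw p of 0.05 by r. No other gene pairs were computed as a background. The pairs share libraries and a size factor per liver.

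Dbp and Per3, 2 direct targets of the clock, ranked the livers identically in both groups. Dbp was highest in METTL3-Flox liver 2, then 4, 3 and 1, and in METTL3-HKD liver 3, then 4, 2 and 1. Over the 8 livers Pearson's r was 0.96 (permutation p = 0.000818, adjusted 0.00921) and Spearman's rho 0.90 (permutation p = 0.00456, adjusted 0.0513). Without the 2 livers farthest from the median of Dbp, METTL3-Flox liver 1 and METTL3-HKD liver 1, r was 0.94. Cry2 and Nr1d1 gave r = 0.97 (permutation p = 0.000198, adjusted 0.00893) and rho = 0.98 (permutation p = 0.000397, adjusted 0.0179), and r = 0.93 without the 2 livers farthest in Cry2.

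Arntl, which peaks at another phase than Dbp, went the opposite way. Pearson's r between them was -0.82 (permutation p = 0.00947, adjusted 0.0339) and Spearman's rho -0.83 (permutation p = 0.0154, adjusted 0.0865). It was -0.83 without the 2 farthest livers. Within groups r was -0.84, with a permutation p of 0.0295 that did not pass the adjustment (0.0781). For Cry1, whose groups do not overlap, no pooled value is given. Within groups its r with Dbp was -0.85 (permutation p = 0.0278, adjusted 0.0781) and with Arntl 0.74 (permutation p = 0.142, adjusted 0.229).

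**Figure D4:**
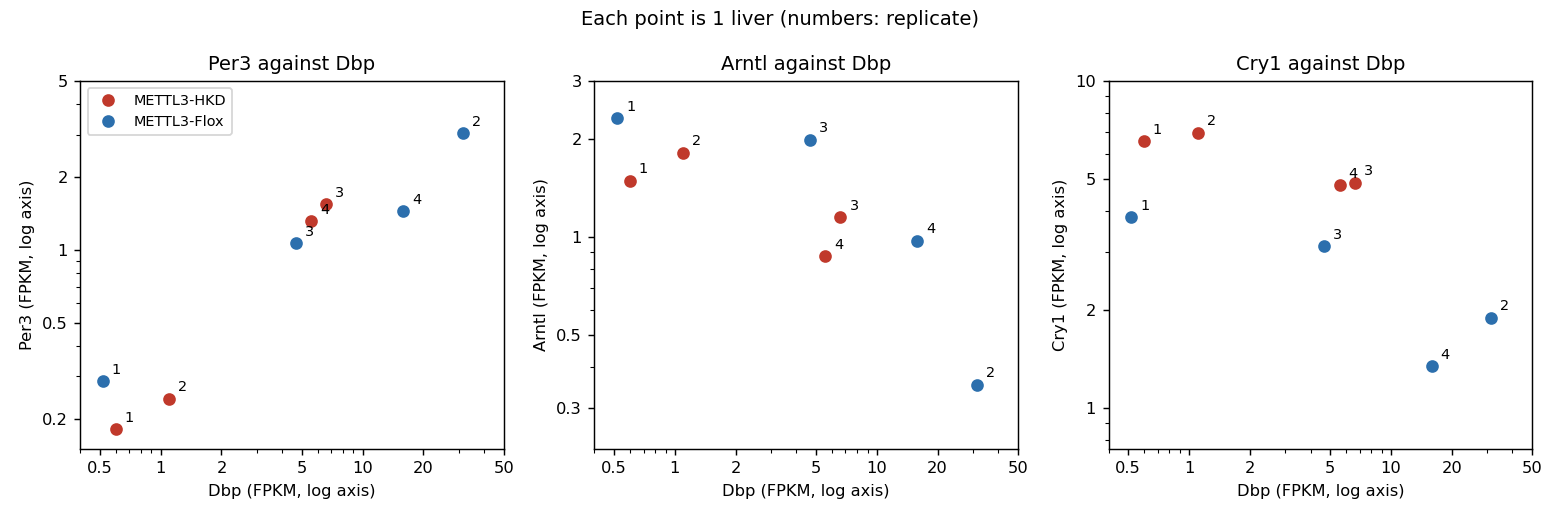
Levels in FPKM of Per3, Arntl and Cry1 (vertical axes) against Dbp (horizontal axes), all on log scales, with 1 point per liver, numbered by replicate, red for METTL3-HKD and blue for METTL3-Flox. Per3 rises with Dbp in both groups. Arntl falls at each step of rising Dbp in METTL3-Flox. In METTL3-HKD it is lower in livers 3 and 4, which have more Dbp, than in livers 1 and 2, without falling at each step. For Cry1 the red points, from 4.80 to 6.95 FPKM, lie above the blue ones, from 1.34 to 3.83 FPKM.

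Other clock transcription factors were read in the same livers, as a list of 12 of which 11 were tested. None was called in either direction, where 9.05% and 6.63% of all genes were, and 0 had an unadjusted p under 0.05 in limma. Their median log2 fold change was -0.04, and Rorb had 1 read in all. The levels of Dbp were compared with those of these 11 factors and Usp2, again after the values were seen, so that the genes named here fall outside the rule for named genes. After removal of group means, 3 of these 12 pairs passed the adjustment. Tef and Hlf, which encode the PAR bZIP relatives of DBP, rose and fell with Dbp (r = 0.97 and 0.96, adjusted permutation p 0.0104 for both). Nfil3, which encodes the repressor that competes with them for D-boxes, went the opposite way (r = -0.88, adjusted permutation p 0.0139). Over all 8 livers rho was 0.93, 0.86 and -0.95 in that order (permutation p 0.00223, 0.0107 and 0.00114; adjusted 0.0134, 0.0321 and 0.0134), and Pearson's r 0.95, 0.92 and -0.86 (permutation p 0.000769, 0.00211 and 0.00970; adjusted 0.00565, 0.00843 and 0.0291). Without the 2 livers farthest in Dbp, r was 0.99, 0.92 and -0.75.

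**Figure D5:**
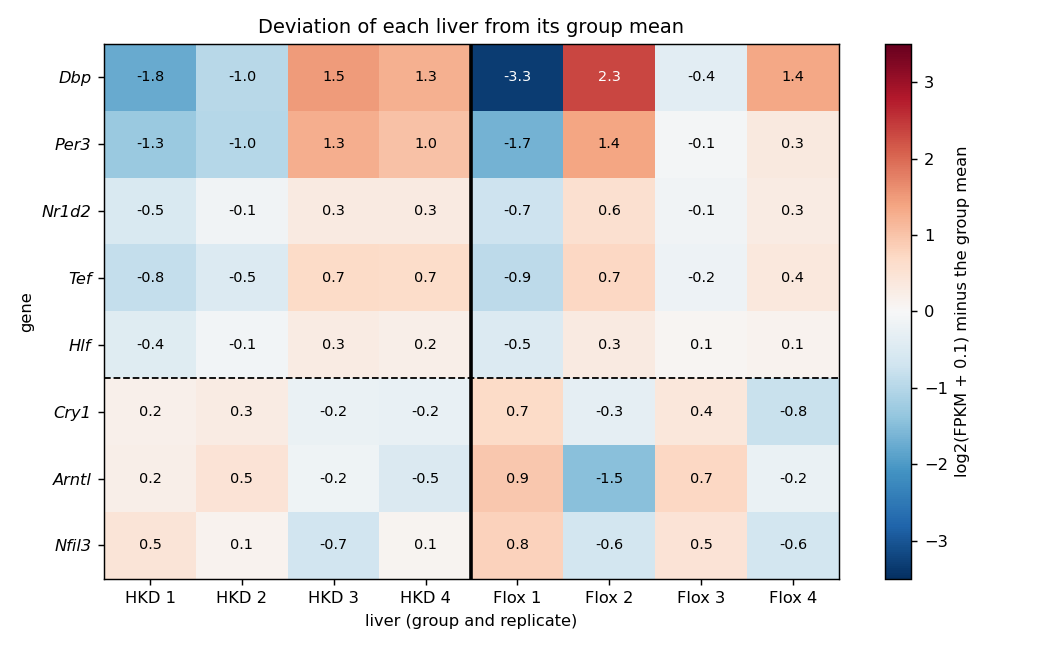
Deviation of log2(FPKM + 0.1) from the mean of the group (colour and printed value) for 8 clock genes (rows) in the 8 livers (columns, METTL3-HKD left and METTL3-Flox right of the black line). The genes above the dashed line are at their lowest in liver 1 of both groups, where Cry1, Arntl and Nfil3 lie above their group means.

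The mRNAs of 17 kinases and ubiquitin enzymes that act on clock proteins were read next. In this list 2 were called higher and 0 lower, where 9.05% and 6.63% of all genes were, with a median log2 fold change of 0.18. At an unadjusted p under 0.05 limma gave 6 higher and 2 lower, where 2785 and 2520 of all 16645 genes tested were. The groups did not overlap for 6 higher and 1 lower, against 12.7% and 9.95% of all genes. Those called were Usp7, a deubiquitinase that stabilises CRY proteins, and Fbxw11, a substrate receptor of the ubiquitin ligase for PER proteins. Usp7 had 11.3, 11.1, 8.97 and 9.35 FPKM in METTL3-HKD and 7.19, 7.40, 7.45 and 8.29 FPKM in METTL3-Flox, a log2 fold change of 0.41 (SE 0.104, adjusted p 0.0308 by limma). Fbxw11 had 16.1, 16.4, 11.3 and 12.5 FPKM against 9.46, 9.21, 10.3 and 10.9 FPKM, a log2 fold change of 0.48 (SE 0.135, adjusted p 0.0439 by limma). METTL3-HKD livers 1 and 2 were the highest for both, as they were for Cry1. These calls were close to the threshold: Usp7 was called in 11 and Fbxw11 in 7 of 19 alternatives. With a single liver left out, any of METTL3-HKD livers 1 and 2 and METTL3-Flox livers 1, 2 and 3 ended both calls, at adjusted p from 0.0538 to 0.112 (limma), and METTL3-HKD liver 4 or METTL3-Flox liver 4 that of Fbxw11 (0.0580 and 0.0665, limma). Of 14 cofactors of the clock none was called, against 9.05% and 6.63% of all genes, with an unadjusted p under 0.05 for 2 higher and 1 lower (limma) and a median log2 fold change of 0.0080.

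Among 12 liver genes known to be driven by the clock, 2 were called higher and 1 lower, against 9.05% and 6.63% of all genes, with a median log2 fold change of 0.22. At an unadjusted p under 0.05 limma gave 5 higher and 2 lower, where 2785 and 2520 of all 16645 genes tested were. The groups did not overlap for 3 higher and 2 lower, against 12.7% and 9.95% of all genes. The bile acid enzyme gene Cyp7a1, a known target of DBP, had 1.20, 1.67, 2.90 and 3.39 FPKM in METTL3-HKD and 7.47, 52.6, 19.3 and 23.6 FPKM in METTL3-Flox. Its log2 fold change was -3.22 (SE 0.546, adjusted p 0.00896 by limma). METTL3-Flox liver 1, lowest in Dbp, was also the lowest of its group for Cyp7a1. METTL3-HKD livers 3 and 4 had more of both than METTL3-HKD livers 1 and 2. Compared with METTL3-HKD livers 3 and 4, METTL3-Flox liver 3 had less Dbp (4.66 against 6.60 and 5.57 FPKM) and more Cyp7a1. With the log2 level of Dbp added to the fit, chosen after seeing the data, the Cyp7a1 change was -2.62 (adjusted p 0.00129 by limma). The part of Dbp in the Cyp7a1 levels was not tested. The drug-metabolism gene Cyp2b10 had 41.8, 58.6, 60.3 and 61.4 FPKM against 24.0, 7.94, 9.06 and 10.6 FPKM, a log2 fold change of 2.23 (SE 0.316, adjusted p 0.00504 by limma). Por, which encodes the electron donor of these cytochromes, had 78.5, 80.6, 89.8 and 78.2 FPKM against 36.6, 72.2, 35.5 and 55.6 FPKM, a log2 fold change of 0.77 (SE 0.216, adjusted p 0.0434 by limma). For both, all METTL3-HKD livers lay above all METTL3-Flox livers. Cyp7a1 and Cyp2b10 were called in all 19 alternatives and Por in 9. Leaving out any single liver other than METTL3-Flox liver 2 ended the call of Por, with adjusted p from 0.0647 to 0.105 (limma).

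Glucocorticoids are known to set liver clocks and to induce Per1. Of 8 glucocorticoid-inducible genes 2 were called higher and 0 lower, against 9.05% and 6.63% of all genes, while 5 had negative fold changes and the median log2 fold change was -0.29. The groups did not overlap for 2 higher and 1 lower, against 12.7% and 9.95% of all genes. The lower gene was Tsc22d3, named after its value was seen, with a log2 fold change of -1.03 and an adjusted p of 0.0532 (limma). Dusp1, a phosphatase of MAP kinases, had 63.5, 29.8, 15.9 and 26.6 FPKM in METTL3-HKD and 10.96, 7.80, 12.4 and 6.15 FPKM in METTL3-Flox, a log2 fold change of 1.72 (SE 0.390, adjusted p 0.0219 by limma). It shares 11 exon bases with Ergic1 on the opposite strand. Igfbp1, a secreted binder of insulin-like growth factors, had 440, 166, 84.6 and 128 FPKM against 48.6, 23.2, 65.4 and 36.0 FPKM, a log2 fold change of 2.05 (SE 0.492, adjusted p 0.0265 by limma). Without METTL3-HKD liver 2, METTL3-Flox liver 2 or METTL3-Flox liver 4, neither was called, with adjusted p from 0.0514 to 0.0569 for Dusp1 and from 0.0603 to 0.0664 for Igfbp1 (limma).

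Markers of some other cell types differed between the groups, where 9.05% of all genes were called higher and 6.63% lower. All 7 tested of 8 neutrophil markers were called higher in METTL3-HKD, and their summed level was 331 to 1612 FPKM there and 12.9 to 44.5 FPKM in METTL3-Flox. Of 5 biliary markers 4 were called higher (119 to 369 against 52.5 to 77.6 FPKM), and of 5 erythroid markers 4, all globin genes (185 to 597 against 48.2 to 107 FPKM). The other erythroid marker, Alas2, named after its value was seen, went the opposite way. Its log2 fold change was -0.98 (limma, unadjusted p 0.0263, adjusted p 0.103). Of 8 Kupffer cell and macrophage markers 4 were called lower, with sums of 157, 175, 83.2 and 84.2 FPKM in METTL3-HKD and of 380, 164, 228 and 215 FPKM in METTL3-Flox, in replicate order. METTL3-HKD livers 1 and 2 and METTL3-Flox livers 1 and 3, the lower livers of each group for Dbp and Per3, had the higher sums of their group. Of 7 sinusoidal endothelial markers 0 were called (63.1 to 76.9 against 67.6 to 77.0 FPKM; limma, unadjusted p under 0.05 for 1), and of 6 stellate cell markers 1 was called in each direction (32.4 to 45.8 against 29.1 to 45.0 FPKM). Of 7 lymphocyte markers 3 were tested and 0 called or under an unadjusted p of 0.05 (0.530 to 2.42 against 0.839 to 1.48 FPKM; limma). Of 10 hepatocyte markers, led by Alb, 0 were called higher and 1, Hnf4a, named after its value was seen, lower (log2 fold change -0.48, adjusted p 0.0187 by limma, and 0.0503 to 0.0593 without METTL3-HKD liver 2, METTL3-Flox liver 3 or METTL3-Flox liver 4). Scaled to reads on genes, Hnf4a had a log2 fold change of -0.26 and an adjusted p of 0.191 (limma). Summed, they reached 22041, 23284, 30677 and 32835 FPKM in livers 1 to 4 of METTL3-HKD and 28488 to 32565 FPKM in METTL3-Flox. METTL3-HKD livers 1 and 2, with the lowest sums, had the highest Cry1 and the lowest Dbp and Per3 of their group. METTL3-Flox liver 1, which also had low Dbp and Per3, had the highest hepatocyte sum of its group. No marker was at 0 in every liver, and the part of the cell types in the clock values was not tested.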

How the data were processed

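Livers of 4 METTL3-HKD and 4 METTL3-Flox mice (ischemia for 1 h, then reperfusion for 6 h) were sequenced from SMARTer mRNA-Seq libraries and grouped by their labels. The authors deposited FPKM for 54532 genes. The submitters' processing notes name GRCm38 (mm10), while the aligner, counter, annotation and strand setting are not given in the sources used here. Multiplying the deposited FPKM by gene length and an effective library size gave whole reads (within 0.1) for 100% of values, which served for depth, 15861245 to 18434488 reads per library, and for voom. No confidence interval was made from reads. Symbols of 27 genes that had become dates were restored by identifier.

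Genes whose mean reached 0.1 FPKM (16645) were compared on log2(FPKM + 0.1) with limma 3.58.1 in R 4.3.3 (lmFit, eBayes with trend, two-sided), with Benjamini-Hochberg adjustment over all of them and a threshold of 0.05. The code was tested on simulated data. Exact permutation tests over 70 arrangements and the correlations used scipy 1.17.1 in Python 3.11.15. Per the study's methods the groups were littermates, but which livers share a litter is not given, and p-values measure the spread between these 8 livers. The clock genes, the other lists and the tests were chosen with earlier results of these data known, and give no independent support. Named are Mettl3, the 10 clock genes, and of each other clock, output or glucocorticoid list the genes called, at most 6. Cell type lists are given by counts and sums. Genes named outside this rule are marked as chosen after their values were seen, or named as overlapping genes. Promoter sequences are from RefSeq, GRCm38.p6. Left-out libraries, other scalings, filters and weights, voom and a replicate block were tried as alternatives.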

Additional observations from a re-analysis of the deposited data

How the results depend on the processing

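Over 189 pairs of a clock gene and an alternative, 175 kept the direction and the side of the threshold, 3 lost the call, 3 gained one and 8 turned in sign. Cry1 was called in 16 of 19 alternatives, with log2 fold changes from 0.96 to 1.47 and adjusted p from 0.0143 to 0.0740 (limma). Leaving out 1 liver gave 0 to 1 clock genes higher, 0 to 2 lower and 1 to 4 with groups that do not overlap. It gave 2 to 11 calls in the other clock, output and glucocorticoid lists together, against 7 with all livers. Array quality weights gave 1 clock gene lower. These other clock, output and glucocorticoid lists had 13 calls at a minimum mean of 1 FPKM, 13 when scaled to reads on genes and 14 with protein-coding genes only. Signs that turned belonged to uncalled genes: Mettl3 when scaled to reads on genes (0.047), Clock with array quality weights (-0.0090), Arntl with the level of Dbp as a term (-0.31), and, with a liver left out, Arntl (-0.34 to 0.46), Clock (-0.010 to 0.13) and Per1 (-0.15 to 0.46). The cause was not tested. Over all genes, 1506 higher and 1104 lower calls became 2303 and 374 when scaled to reads on genes, 971 and 645 with the block, 1204 and 682 without a minimum mean, and 747 to 1659 and 355 to 1148 with a liver left out. With the replicate block, 1 clock gene was called higher, 0 lower and 7 genes of the other lists, while Usp7 (adjusted p 0.0817), Fbxw11 (0.102), Por (0.0716) and Hnf4a (0.0543) were not called (limma). Over all tested genes, deviations of same-numbered livers correlated at 0.0711, -0.0838, -0.0134 and -0.0339. These values show no pairing by replicate number across all genes. They do not decide whether same-numbered livers share a litter or an hour of collection, which was not tested. Levels under 0.3 FPKM of Per3 and under 1 FPKM of Dbp rest on few reads.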
